A study of Mus musculus with 9 samples.

Results

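The genes described here encode the enzymes that build cholesterol from acetyl units and the proteins that set the activity of SREBP, the transcription factor that drives this pathway. They were taken from a list of 27 gene symbols and followed through every probe set annotated to exactly 1 of these symbols. For 25 of the 27 genes there was at least 1 such probe set, 55 in all, among the 45101 probe sets of the array. Acat2, the cytosolic thiolase of the first step, and Soat2, which esterifies cholesterol in the intestine, had no single-symbol probe set and were not analysed here. All 25 genes passed the filter on dim probe sets, as did 49 of their 55 probe sets. Each gene is represented by its brightest probe set unless another is named.

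The samples were RNA from pooled pieces of the distal small intestine of mice colonized for 10 days with the gut bacterium Bacteroides thetaiotaomicron, with 3 arrays in each of 3 groups. The BP samples had the source label of the Rag1 samples plus the name BP, whose meaning is not stated. The Rag1 samples take their name from the gene that lymphocytes need to cut and join antibody and T cell receptor genes. The B6 samples were from wild type B6 mice. The colonization was common to all groups. Age, sex, the Rag1 allele and the number of mice behind an array are not in the labels. The p-values therefore measure only the spread between these samples, which may be technical.

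Arrays differed in quality and in what the tissue held. For the beta-actin control, signal at the 3' end was divided by that at the 5' end, a ratio that grows as RNA is shortened. BP replicates 1, 2 and 3 had ratios of 14.2, 2.43 and 20.2, while the Rag1 arrays lay between 1.53 and 1.77 and the B6 replicates had 3.25, 1.76 and 4.17. Igha, the IgA heavy chain constant region, had normalized intensities between 38.9 and 130 in BP and between 78.6 and 87.3 in Rag1, against 2530 or more in B6. Of the 4 plasma cell and T cell markers, Igha and Cd3e were lower in Rag1 than in B6 in limma. Jchain and Cd3d were lower too, but passed the filter on dim probe sets only through their B6 arrays. The enterocyte genes Vil1 and Fabp2 were bright on all 9 arrays, at 4800 or more and 11400 or more, and the bile acid binding protein gene Fabp6 of the ileum was at 2350 or more. The female-specific X inactivation transcript Xist was at 41.6, 518 and 1950 on BP replicates 1, 2 and 3. It was at most 22.6 on the Rag1 arrays and at least 1090 on the B6 arrays. The sex-linked Eif2s3y, left out as dim, read 19.2, 2.26 and 3.06 on the BP arrays and 95, 42.4 and 76.2 on the Rag1 arrays. Its B6 values were at most 7.21. Sex and group therefore cannot be told apart between Rag1 and B6, or between Rag1 and BP. The BP arrays also differed among themselves in Xist. The members Ebp and Nsdhl are X-linked. In whole tissue, fewer cells of a type and less RNA per cell cannot be told apart.

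Cholesterol synthesis begins with the joining of acetyl units into HMG-CoA and mevalonate, passes through the isoprenoid farnesyl diphosphate, and continues from squalene to the ring-shaped sterols. When membranes of the endoplasmic reticulum hold little sterol, Scap escorts SREBP to the Golgi, where it is cleaved and released to activate the enzyme genes. When sterol is plentiful, Insig proteins hold the Scap and SREBP complex back, while liver X receptors, which sense oxidised sterols, switch on genes that export sterol. The small intestine both makes cholesterol and absorbs it from the diet and bile.

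Enzyme levels varied more between arrays of the Rag1 group than those of most other transcripts did. The median standard deviation of a member over the 3 arrays was 0.42 on the log2 scale in both BP and Rag1 and 0.23 in B6. Over all 27022 probe sets tested it was 0.44 in BP, 0.21 in Rag1 and 0.23 in B6. In the Rag1 group the highest and lowest arrays lay more than 1 apart on the log2 scale, a 2-fold ratio, for 10 of 25 members, against 5.94% of all probe sets tested. The corresponding counts were 7 of 25 in BP, against 38.7% of all probe sets, and 2 of 25 in B6, against 9.88%. These counts are descriptions of these arrays and were chosen after the values were seen.

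The Rag1 arrays differed in the same direction for most members. Rag1 replicate 3 was the highest of its group for 22 of 25 members, against 35.3% of all probe sets. Rag1 replicate 2 was the lowest for 19 of 25, against 39.6%. All but Srebf1 of the 25 were higher on replicate 3 than on replicate 2, against 52.5% of all probe sets, and 10 of 25 by more than 1 on the log2 scale, against 2.04%. These 10 were the mevalonate enzymes Hmgcs1, Pmvk, Idi1 and Fdps and the sterol enzymes Fdft1, Sqle, Cyp51, Tm7sf2, Msmo1 and Hsd17b7. Msmo1, which takes part in the removal of methyl groups from the sterol ring, read 548, 224 and 890 on Rag1 replicates 1, 2 and 3. Cyp51, the lanosterol demethylase, read 271, 144 and 480 on the same arrays. Replicate 3 was thus 3.77-fold above replicate 2 for Msmo1 and 3.1-fold for Cyp51. Fdft1, squalene synthase, read 444, 258 and 706, a ratio of 2.63 between replicates 3 and 2. Hmgcs1, the HMG-CoA synthase, read 2080, 1390 and 3160, and Sqle, squalene epoxidase, read 850, 577 and 1320. Of the 49 tested probe sets of the members, 36 were highest on replicate 3.

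**Figure D1:**
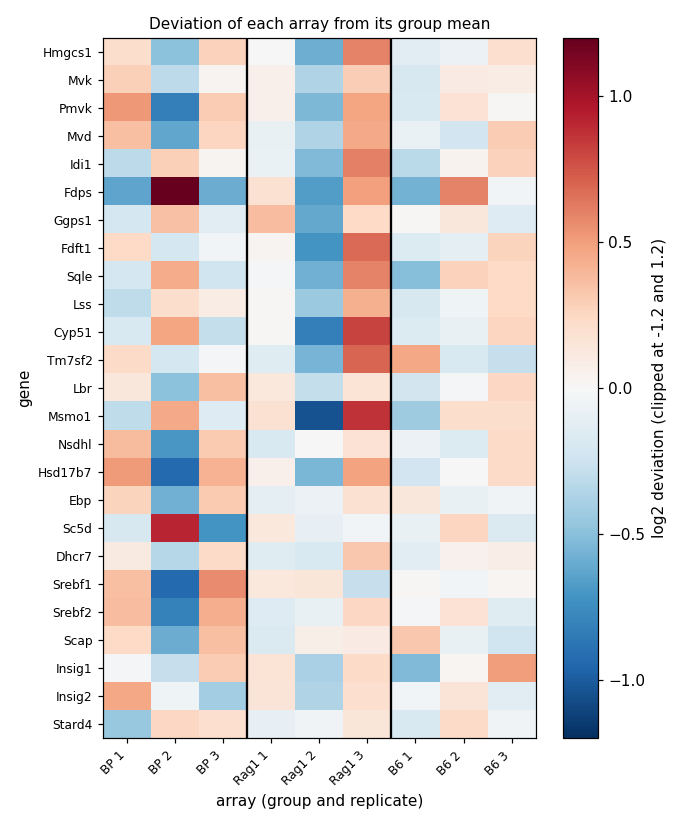
Log2 deviation of each array (columns, grouped as BP, Rag1 and B6 and numbered by replicate) from the mean of its group, for the brightest probe set of each of the 25 measured genes (rows). Red cells are above the group mean and blue cells below it; Rag1 replicate 3 is the highest Rag1 array for 22 genes and Rag1 replicate 2 the lowest for 19.

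The regulators of SREBP spread less over the same arrays. None of the 5 control genes had a range above 1 in the Rag1 group, and the median difference between Rag1 replicates 3 and 2 was 0.34 for them, 1.01 for 7 early and mevalonate enzymes and 0.95 for 12 sterol enzymes. Srebf1, which encodes the SREBP form tied mainly to fatty acid synthesis, went the other way, at 652, 657 and 489 on Rag1 replicates 1, 2 and 3. Srebf2, which encodes the form tied mainly to cholesterol synthesis, read 481, 504 and 641. Scap was nearly level at 281, 337 and 344. Insig1 read 337, 225 and 354 and Insig2 read 354, 242 and 366, and so both followed the order of the enzymes.

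The sterol export genes Abca1, Abcg5 and Abcg8 ran opposite to the enzymes on the Rag1 arrays. Of the 6 tested genes of the liver X receptor and sterol efflux list, 1 was highest on Rag1 replicate 3, against 35.3% of all probe sets. On replicate 3, 5 of the 6 were lower than on replicate 2, while 52.5% of all probe sets were higher. Abca1, which exports cholesterol to lipoproteins, read 296, 436 and 119 on Rag1 replicates 1, 2 and 3. Abcg8 and Abcg5, which pair to form the pump that returns sterols to the gut lumen, read 675, 980 and 534 and 1370, 1400 and 1040. Replicate 3 was therefore the lowest Rag1 array for these 3 genes and replicate 2 the highest. Abcg1 read 281, 236 and 213, so it was highest on replicate 1. The liver X receptor gene Nr1h3 read 320, 567 and 430, lowest on replicate 1. Mylip, another liver X receptor target, went with the enzymes at 123, 110 and 127. Of 14 tested fatty acid synthesis genes, 13 were higher on replicate 3 than on replicate 2, against 52.5% of all probe sets. Their median difference was 0.33 on the log2 scale, and Scd2 had the largest at 1.17.

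Some genes that mark position along the small intestine moved with the same arrays. Fabp6 read 6170, 2350 and 10500 on Rag1 replicates 1, 2 and 3, and the ileal bile acid transporter Slc10a2 read 14.0, 9.71 and 90.7. The Slc10a2 values on replicates 1 and 2 were dim, under the filter level of about 23.5. Apoa4, an apolipoprotein of absorbing enterocytes, read 6150, 7410 and 3580. Replicate 3 minus replicate 2 was -1.05 on the log2 scale for Apoa4. The other tested enterocyte genes differed less, with Vil1 at -0.17, Fabp2 at -0.04, Alpi at -0.23 and Apoa1 at -0.03. The third ileal marker, Fgf15, did not follow, at 105, 176 and 129. The part of tissue position in the enzyme differences was not tested. The actin ratio was 1.53, 1.69 and 1.77 on these arrays.

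**Figure D2:**
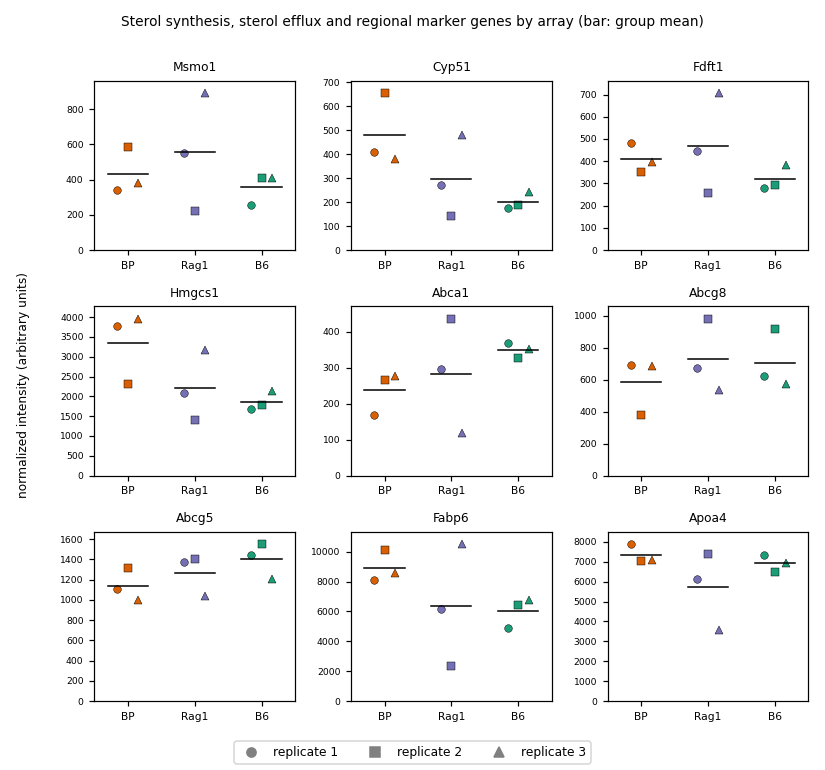
Normalized intensity (arbitrary units, linear axis from 0) by array for 4 sterol synthesis genes, 3 sterol efflux genes, the ileal gene Fabp6 and the enterocyte gene Apoa4, with groups on the horizontal axis, marker shape for the replicate and a bar for the group mean. In the Rag1 group, replicate 3 is highest and replicate 2 lowest for the synthesis genes and Fabp6, and the order is turned round for Abca1, Abcg5, Abcg8 and Apoa4.

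The promoters of the 5 genes that differed most between Rag1 replicates 3 and 2, among those with an entry in RefSeq's promoter table of build GRCm38.p6, are shown because their transcripts moved together. Each run is the 250 bases before the transcription start, read 5' to 3' on the gene's strand. Capitals mark CCAAT (or ATTGG, the same letters on the other strand), which NF-Y binds and which often accompanies SREBP sites, and in Hmgcs1 also a match to TCACNCCAC, the core of the sterol regulatory element. Msmo1 lies at chr8:64733579-64733828 (minus strand), Cyp51 at chr5:4104698-4104947 (minus strand), Tm7sf2 at chr19:6067851-6068100 (minus strand), Hmgcs1 at chr13:119690101-119690350 (plus strand) and Idi1 at chr13:8885356-8885605 (plus strand).
Msmo1: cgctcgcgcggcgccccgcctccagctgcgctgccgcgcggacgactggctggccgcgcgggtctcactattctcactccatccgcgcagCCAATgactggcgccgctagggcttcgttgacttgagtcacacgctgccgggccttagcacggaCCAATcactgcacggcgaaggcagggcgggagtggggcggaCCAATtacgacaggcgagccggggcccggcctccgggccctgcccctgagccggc
Cyp51: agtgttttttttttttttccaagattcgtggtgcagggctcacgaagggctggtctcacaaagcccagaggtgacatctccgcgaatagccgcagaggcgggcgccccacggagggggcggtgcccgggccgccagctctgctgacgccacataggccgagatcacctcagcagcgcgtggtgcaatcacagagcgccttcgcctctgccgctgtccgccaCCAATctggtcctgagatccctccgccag
Tm7sf2: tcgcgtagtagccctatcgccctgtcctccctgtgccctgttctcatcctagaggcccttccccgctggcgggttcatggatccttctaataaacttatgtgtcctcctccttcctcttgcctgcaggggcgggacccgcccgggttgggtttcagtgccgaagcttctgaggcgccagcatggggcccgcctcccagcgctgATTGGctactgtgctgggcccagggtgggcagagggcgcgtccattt
Hmgcs1: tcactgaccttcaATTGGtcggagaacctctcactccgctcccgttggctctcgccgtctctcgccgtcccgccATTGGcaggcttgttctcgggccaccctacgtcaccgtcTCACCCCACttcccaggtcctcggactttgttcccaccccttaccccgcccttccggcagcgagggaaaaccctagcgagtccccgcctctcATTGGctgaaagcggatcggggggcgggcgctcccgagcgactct
Idi1: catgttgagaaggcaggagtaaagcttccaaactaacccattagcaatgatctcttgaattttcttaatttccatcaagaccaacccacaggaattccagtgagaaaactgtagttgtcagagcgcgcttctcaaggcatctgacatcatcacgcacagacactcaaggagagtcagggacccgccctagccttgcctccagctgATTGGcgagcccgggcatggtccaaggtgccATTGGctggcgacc

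Of the 27 listed genes, 22 had a promoter in that table, with 30 starts in all. Sqle, Fdft1, Fdps, Stard4 and Soat2 had none. A CCAAT on either strand stood before at least 1 start of 20 of the 22 genes (90.9%), against 37.5% of all genes in the table. GGGCGG, the letters bound by Sp1, did so in 20 of 22 as well, against 35.4%. CACGTG, an E-box that SREBP can also bind, was found in 5 of 22 (22.7%), against 6.86%: Dhcr7, Hsd17b7, Insig1, Sc5d and Scap. TCACNCCAC was found in 1 of 22, Hmgcs1, against 1.22% of all genes. Matches on both strands were counted, and a match is a description and not a measured site.

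The first comparison set Rag1 tissue against wild type B6 tissue, and no member passed. In limma, 0 of 25 members had an adjusted p under 0.05, against 0.329% of all probe sets, and 2 of 25 had an unadjusted p under 0.05, against 5.56%. The values ran higher in Rag1 for 17 of 25 members, against 51.4% of all probe sets, with a median of 0.17 on the log2 scale beside 0.01 over all probe sets. By role, the median was 0.17 over 7 early and mevalonate enzymes, 0.32 over 12 sterol enzymes and 0.09 over 5 control genes. The median over all members depended on which Rag1 arrays were kept: it was -0.02 without Rag1 replicate 3 and 0.33 without Rag1 replicate 2.

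The arrays of the 2 groups did not overlap for 3 members, against 17.7% of all probe sets. Sqle and Insig2 had every Rag1 array above every B6 array. Sqle, which adds oxygen to squalene, read 850, 577 and 1320 on the Rag1 arrays, against 272, 483 and 469 on the B6 arrays. The log2 difference was 1.098 ± 0.323 (SE, n = 3 per group; limma adjusted p = 0.440). Insig2, which helps hold SREBP in the endoplasmic reticulum, read 354, 242 and 366 on the Rag1 arrays, against 174, 202 and 163 on the B6 arrays. Its difference was 0.77 ± 0.26 (limma adjusted p = 0.612), and its other tested probe sets gave 0.96 and 0.43. With array weights, which lower the influence of arrays that scatter more, both passed in limma, with adjusted p of 0.00728 for Sqle and 0.0133 for Insig2, where 3.89% of all probe sets passed. Over the other alternatives their adjusted p ran from 0.0608 to 1 for Sqle and from 0.0763 to 1 for Insig2.

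Srebf1 had every Rag1 array below every B6 array. It read 652, 657 and 489 on the Rag1 arrays, against 792, 768 and 800 on the B6 arrays, a difference of -0.40 ± 0.32 (limma adjusted p = 0.999). Fdps, farnesyl diphosphate synthase, had the third largest value, 0.68 ± 0.49 (limma adjusted p = 0.999), and its groups overlapped. Among the other members the differences lay between -0.35 and 0.44.

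**Figure D3:**
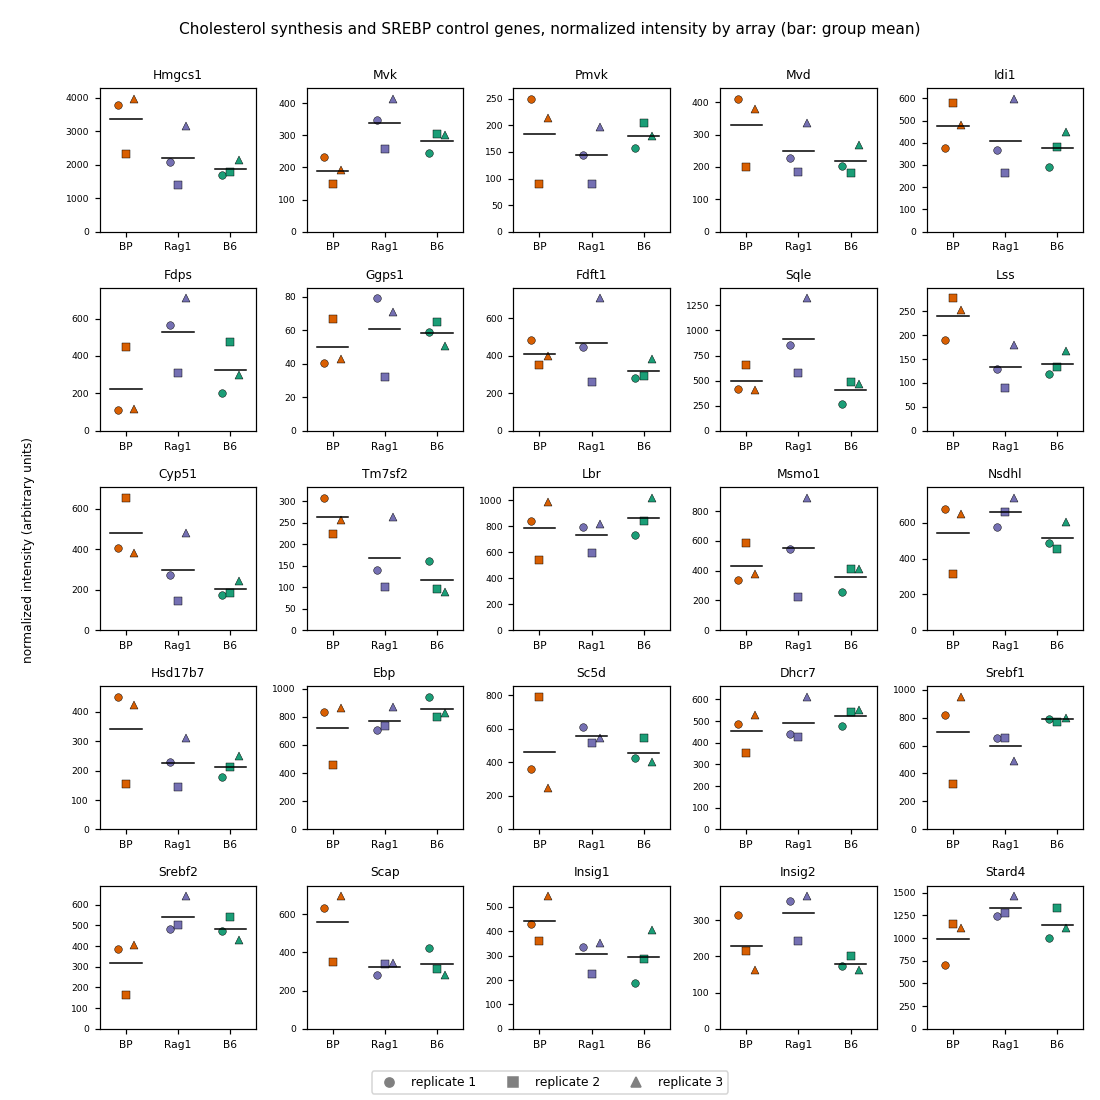
Normalized intensity (arbitrary units, linear axes from 0, a separate scale for each gene) of the 25 measured genes by array, with BP, Rag1 and B6 on the horizontal axis, marker shape for the replicate and a bar for the group mean. Sqle and Insig2 show all Rag1 points above all B6 points, Mvk and Srebf2 show all BP points below all Rag1 and B6 points, and for many genes BP replicate 2 stands away from BP replicates 1 and 3.

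The next comparison set BP tissue against Rag1 tissue, which share a source label. The sex-linked transcripts also differed between these groups, so the BP condition and sex cannot be told apart here. Again no member passed. In limma, 0 of 25 members had an adjusted p under 0.05, against 3.80% of all probe sets, and 7 of 25 had an unadjusted p under 0.05, against 20.0%. The members were divided in direction, with 12 higher in BP, against 46.2% of all probe sets, 13 lower and a median of -0.09 on the log2 scale beside -0.04 over all probe sets. The groups did not overlap for 6 members, against 23.6% of all probe sets, with 3 higher and 3 lower in BP. By role, the median was 0.27 over the early and mevalonate enzymes, -0.10 over the sterol enzymes and 0.09 over the control genes. Of 4 smooth muscle markers, Myh11 (-1.51) and Des (-0.69) were lower in BP in limma, with adjusted p of 0.0134 and 0.0485, while Actg2 gave -0.32 and was not called. Acta2 went the other way, at 4030, 4320 and 4240 on the BP arrays, against 3500, 2820 and 3620 on the Rag1 arrays (0.35, limma adjusted p = 0.166). The summed level of the 4 markers was 6540, 8920 and 6460 on the BP arrays, against 8980, 7560 and 8670 on the Rag1 arrays, and the ranges overlapped. Alas2, a heme synthesis gene of red blood cell precursors, read 63.6, 79.7 and 98 on the BP arrays, against 26.6, 7.3 and 16.8 on the Rag1 arrays (1.58). It passed the filter on dim probe sets only through its BP arrays, so its test carries little weight. The part of these markers in the member values was not tested.

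Mvk, mevalonate kinase, read 232, 147 and 192 on the BP arrays, against 348, 257 and 414 on the Rag1 arrays. The difference was -0.78 ± 0.24 (SE, n = 3 per group; limma adjusted p = 0.0931). Mvk was among the 12 of 25 members that kept their direction under every alternative tried, and its dimmer probe set gave -0.25. Srebf2 read 385, 162 and 406 on the BP arrays, against 481, 504 and 641 on the Rag1 arrays, a difference of -0.83 ± 0.30 (limma adjusted p = 0.149). Its other probe set gave -0.34. Stard4, which carries sterol between membranes, was the third gene with all BP arrays lower, at 701, 1150 and 1110 against 1240, 1280 and 1460, and its other probe sets gave 0.00 and 0.13.

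The 3 genes with all BP arrays higher were Lss, Scap and Insig1. Lss, lanosterol synthase, read 189, 277 and 253 on the BP arrays, against 129, 90.2 and 179 on the Rag1 arrays, a difference of 0.81 ± 0.27 (limma adjusted p = 0.116). Its other tested probe set gave 0.10 and overlapped, at 104, 11.8 and 100 on the BP arrays, against 50.7, 65.3 and 41.9 on the Rag1 arrays. Scap read 632, 347 and 693 on the BP arrays, against 281, 337 and 344 on the Rag1 arrays, a difference of 0.72 ± 0.27 (limma adjusted p = 0.161). For Scap the lowest BP array and the highest Rag1 array nearly touched. Insig1 read 431, 359 and 544 on the BP arrays, against 337, 225 and 354 on the Rag1 arrays, a difference of 0.52 ± 0.29 (limma adjusted p = 0.344).

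The largest single difference was that of Fdps, which read 112, 448 and 116 on BP replicates 1, 2 and 3, against 568, 308 and 708 on the Rag1 arrays. The difference was -1.38 ± 0.49 (limma adjusted p = 0.143), and BP replicate 2 lay inside the range of the Rag1 arrays. The Fdps value depended on the BP arrays and the actin ratio. It was -1.99 without BP replicate 2 and 0.16 with the actin ratio as covariate. Without the arrays of actin ratio over 3, which keeps 1 BP array, it was -0.15. The other tested probe sets of a gene did not always share its sign: of 14 members with several tested probe sets, 5 had both signs between BP and Rag1, 7 between Rag1 and B6 and 6 between BP and B6.

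Hmgcs1 showed this most plainly. Its brightest probe set read 3770, 2320 and 3960 on BP replicates 1, 2 and 3, against 2080, 1390 and 3160 on the Rag1 arrays, a difference of 0.64 ± 0.28 (limma adjusted p = 0.229). Of its 4 other probe sets, 3 had the same sign, at 0.67, 0.36 and 1.21. The last of these, the gene's dimmest, had every BP array above every Rag1 array. It read 39.2, 85.6 and 64.2 on the BP arrays, against 10.2, 10.3 and 37 on the Rag1 arrays. It passed the filter on dim probe sets only through its BP arrays, so its value adds little to that of the brightest. The fourth brightest probe set of the gene had the opposite sign and read 87.1, 300.0 and 63.5 on the BP arrays, against 547, 297 and 682 on the Rag1 arrays, a difference of -1.86 ± 0.49 (limma adjusted p = 0.0594). BP replicates 1 and 3, with actin ratios of 14.2 and 20.2, were the highest arrays on the first probe set and the lowest on the other. The 2 arrays' RNA state was not tested as a cause, and the place of each probe set in the transcript was not used here.

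Hsd17b7, a reductase of the demethylation steps, also had probe sets of both signs. Its brightest read 450, 155 and 422 on the BP arrays, against 228, 143 and 310 on the Rag1 arrays (0.49). Its next gave -1.37 ± 0.35 (limma adjusted p = 0.0552), at 41.5, 31.9 and 13.2 on the BP arrays, against 115, 63.9 and 115. There BP replicate 2 also lay below every Rag1 array, unlike on the Hmgcs1 probe set of opposite sign. The dimmer tested probe sets of Hsd17b7 gave 0.59 and -0.71, and their groups overlapped. Fdft1 read 484, 349 and 397 on the BP arrays, against 444, 258 and 706 on the Rag1 arrays (-0.09), and its other tested probe set gave 1.198 ± 0.327 (limma adjusted p = 0.0657). Sc5d, a desaturase near the end of the pathway, read 359, 789 and 244 on the BP arrays, against 609, 517 and 543 on the Rag1 arrays, and its 3 probe sets gave -0.42, -0.33 and 0.30. Ggps1, which makes the longer isoprenoid used to anchor proteins, had 4 tested probe sets that were all lower in BP, from -1.13 to -0.18. All 3 probe sets of Insig2 were lower in BP than in Rag1 too, from -0.73 to -0.45, and its arrays read 313, 214 and 162 in BP, against 354, 242 and 366 in Rag1.

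**Figure D4:**
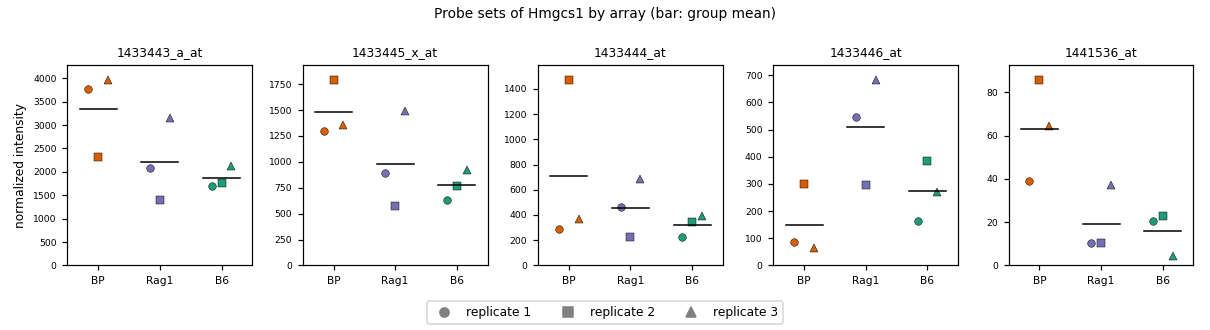
Normalized intensity (arbitrary units, linear axes from 0) of the 5 probe sets of Hmgcs1 by array, from the brightest at the left to the dimmest at the right, with groups on the horizontal axis, marker shape for the replicate and a bar for the group mean. BP replicates 1 and 3 lie above all Rag1 points on the first probe set and below all of them on the fourth.

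The remaining members overlapped between BP and Rag1. Sqle read 413, 659 and 405 on the BP arrays, against 850, 577 and 1320 on the Rag1 arrays, a difference of -0.83 ± 0.32 (limma adjusted p = 0.176). Pmvk, phosphomevalonate kinase, gave 0.28, Mvd, mevalonate diphosphate decarboxylase, 0.36, and Idi1, the isopentenyl diphosphate isomerase, 0.27. Cyp51 gave 0.77 (limma adjusted p = 0.267), Tm7sf2 0.685 (limma adjusted p = 0.269) and Msmo1 -0.18. Lbr, a sterol reductase that also anchors chromatin at the nuclear envelope, gave 0.07. The X-linked pair Nsdhl, a sterol dehydrogenase, and Ebp, a sterol isomerase, gave -0.33 and -0.15, and Dhcr7, the last reductase, -0.11.

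BP replicate 2 stood apart from BP replicates 1 and 3. It was the lowest BP array for 15 of 25 members, against 41.9% of all probe sets, and the highest for 9, against 37.1%. It lay more than 1 below the mean of the other two on the log2 scale for 5 members, against 10.9%: Pmvk, Nsdhl, Hsd17b7, Srebf1 and Srebf2. It lay more than 1 above it for 2, against 12.0%: Fdps and Sc5d. Its actin ratio was 2.43, against 14.2 and 20.2 on the other two.

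The count of calls depended on which BP arrays were kept. Without BP replicate 2, 9 of 25 members passed in limma (4 higher and 5 lower in BP), where 19.5% of all probe sets passed: Hmgcs1, Hsd17b7, Srebf1 and Scap higher, and Mvk, Fdps, Sqle, Sc5d and Stard4 lower. With BP replicates 1 and 3 both left out, so that 1 BP array remained and was assumed to vary like the other groups, 6 passed (1 higher and 5 lower), where 22.0% of all probe sets passed: Lss higher, and Mvk, Nsdhl, Ebp, Srebf1 and Srebf2 lower. Mvk was called lower both ways, by -0.62 (limma adjusted p = 0.0464) and -1.10 (limma adjusted p = 0.0113). Srebf1 was called in opposite directions, at 0.56 without BP replicate 2 (limma adjusted p = 0.0208) and -0.84 with that array alone (limma adjusted p = 0.0128). Srebf1 read 821, 325 and 947 on BP replicates 1, 2 and 3, against 652, 657 and 489 on the Rag1 arrays. Array weights gave 6 calls, where 14.9% of all probe sets passed, the actin ratio as a covariate gave 6 (15.5%) and leaving out every array of actin ratio over 3, which keeps 1 BP array and 1 B6 array, gave 6 (23.1%).

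BP and B6 tissue were compared last, and no member passed there. In limma, 0 of 25 members had an adjusted p under 0.05, against 0.633% of all probe sets, and 7 of 25 had an unadjusted p under 0.05, against 14.6%. The median was 0.25 on the log2 scale beside -0.04 over all probe sets, with 14 members higher in BP, against 46.0% of all probe sets, and 11 lower. By role, the median was -0.07 over the early and mevalonate enzymes, 0.26 over the sterol enzymes and 0.29 over the control genes. The comparison shares its BP arrays with the previous one and its B6 arrays with the one before.

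Among the tissue markers, Igha and Cd3e were lower in BP than in B6 in limma, with differences of -5.54 and -1.92. Jchain gave -5.31 but passed the filter only through its B6 arrays. No marker outside the plasma cell and T cell lists was called. Fabp6 (0.57), Csf1r of macrophages (0.66), Acta2 (0.39), Ttr (0.85) and Alas2 (1.345) had every BP array above every B6 array. Myh11 (-0.98), Des (-0.63), Top2a (-0.68), Vil1 (-0.21) and Cd3d (-1.35) had every BP array below. Over all probe sets, 18.6% did not overlap in either direction. Other markers of the same lists did not follow. Lgr5 (0.41), Olfm4 (0.12) and Mki67 (0.04) had the sign opposite to Top2a, and Apoh (-0.37) that opposite to Ttr, and all overlapped. The other tested enterocyte genes lay between -0.07 and 0.08 and overlapped. Alas2 passed the filter only through its BP arrays and Cd3d only through its B6 arrays. The part of these markers in the member values was not tested.

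The groups did not overlap for 6 members, against 18.6% of all probe sets. Every BP array lay above every B6 array for Hmgcs1, Lss, Cyp51 and Tm7sf2. Cyp51 read 408, 655 and 379 on the BP arrays, against 176, 186 and 241 on the B6 arrays, a difference of 1.17 ± 0.36 (SE, n = 3 per group; limma adjusted p = 0.169). Tm7sf2, a sterol reductase of the later steps, read 308, 223 and 257 on the BP arrays, against 160, 96.8 and 89.6 on the B6 arrays, a difference of 1.11 ± 0.33 (limma adjusted p = 0.149). The difference was 0.81 ± 0.28 for Hmgcs1 and 0.71 ± 0.27 for Lss, with limma adjusted p of 0.206 and 0.244. On the fourth probe set the Hmgcs1 value was again of the other sign, -0.995 ± 0.492. The other tested probe set of Lss gave 0.28, and its groups overlapped.

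Mvk and Srebf2 had every BP array below every B6 array. Mvk read 232, 147 and 192 on the BP arrays, against 246, 304 and 302 on the B6 arrays, a difference of -0.55 ± 0.24 (limma adjusted p = 0.312). Srebf2 read 385, 162 and 406 on the BP arrays, against 472, 541 and 430 on the B6 arrays, a difference of -0.67 ± 0.30 (limma adjusted p = 0.334). Without BP replicate 2, 6 members passed in limma, where 11.2% of all probe sets passed: Hmgcs1, Mvd, Tm7sf2, Hsd17b7 and Scap higher and Fdps lower. With that array as the lone BP array, 7 passed, where 20.9% of all probe sets passed: Cyp51 and Sc5d higher, and Mvk, Nsdhl, Ebp, Srebf1 and Srebf2 lower. Array weights called 1, Hmgcs1, where 3.17% of all probe sets passed, and the covariate 5 (12.9%). Leaving out every array of actin ratio over 3 called 2 (14.1%), but set 1 BP array against 1 B6 array, with the spread taken from the 3 Rag1 arrays.

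**Figure D5:**
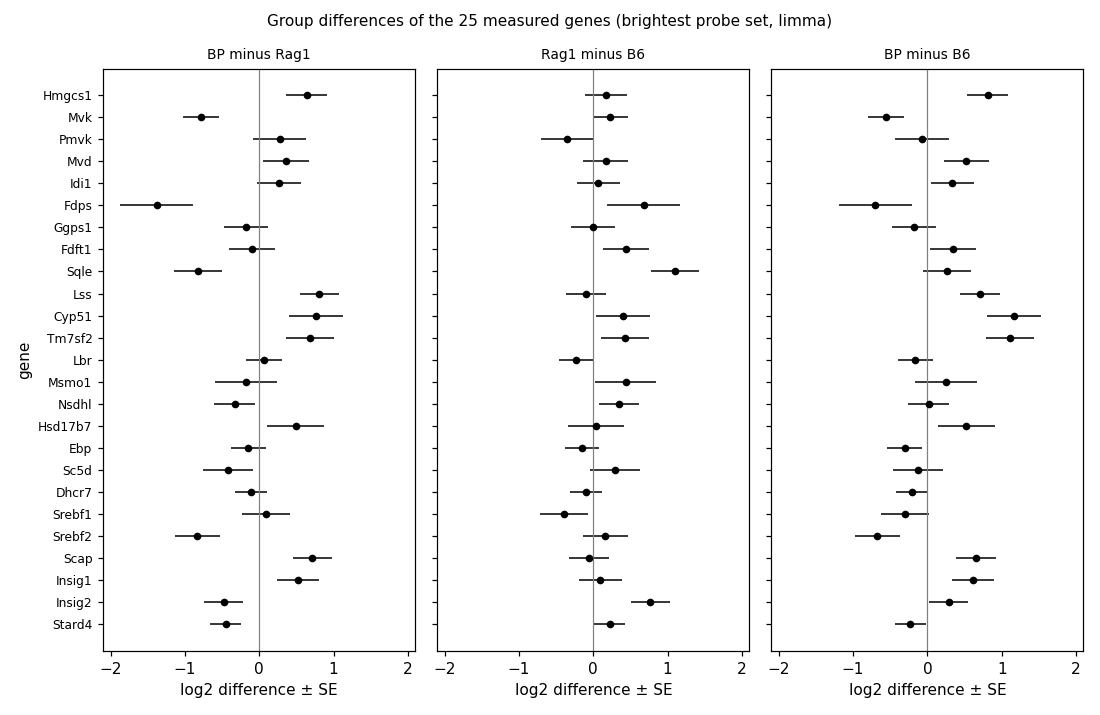
Log2 difference between groups (horizontal axis) with its standard error (bars, 3 arrays per group) for the brightest probe set of each of the 25 measured genes (rows), in 3 panels for BP minus Rag1, Rag1 minus B6 and BP minus B6. The line marks no difference; Sqle has the largest value in Rag1 minus B6 at 1.098, Fdps the lowest in BP minus Rag1 at -1.38 and Cyp51 the highest in BP minus B6 at 1.17, and none passed the threshold on adjusted p.

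No gene of the wider sterol and lipid lists passed either. Of 39 further genes of sterol uptake, SREBP cleavage, sterol efflux, fatty acid synthesis and the non-sterol isoprenoid branch, 32 were measured and tested. In limma 0 of the 32 passed in any of the 3 comparisons, and 6, 2 and 3 had an unadjusted p under 0.05 in BP minus Rag1, Rag1 minus B6 and BP minus B6. Over all probe sets, 3.80%, 0.329% and 0.633% passed and 20.0%, 5.56% and 14.6% had an unadjusted p under 0.05 in the same comparisons. Closest to the threshold were Me1, malic enzyme, which supplies NADPH for lipid synthesis, and Tmem97, a sterol-regulated membrane protein. Me1 read 168, 363 and 202 on the BP arrays, against 125, 70.1 and 98.7 on the Rag1 arrays (1.15 ± 0.29, limma adjusted p = 0.0513). Tmem97 read 130, 168 and 170 on the BP arrays, against 295, 277 and 265 on the Rag1 arrays (-0.79 ± 0.20, limma adjusted p = 0.0521). Both were picked for their small p.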

How the data were processed

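Affymetrix arrays measured messenger RNA of 9 samples, from biotin-labelled cRNA made of 20 µg of total RNA per the labels' protocols. Values were deposited on a linear scale as intensities between 1 and 21694. The authors' software and scaling are not given in the sources used here, nor is a genome build for the values. The files give no detection calls. Array medians were 29.4 to 48.0, and how many arrays there are limits the precision.

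Intensities were turned into log2(value + 16) and quantile-normalized between arrays. Normalized intensity in the text is 2 to the power of that value, minus 16. The 64 control probe sets and the lowest 40% of the others by mean over all arrays (5.30 on the log2 scale, about 23.5 in intensity) were left out, which kept 27022. Folds and differences are on the log2(value + 16) scale, which understates changes of dim genes. Symbols came from the platform annotation, where 34945 probe sets had 1 symbol, 932 several and 9160 none.

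Group differences were fitted by limma (version 3.58.1, R 4.3.3) with 1 mean per group, all 9 arrays in 1 fit (6 residual degrees of freedom), an intensity trend, two-sided, with Benjamini-Hochberg adjustment over all tested probe sets and a threshold of 0.05. The fit was tested on simulated data. The members and lists were chosen with earlier results of these data known. The genes given by array are those whose groups did not overlap or whose probe sets disagreed, the 5 control genes, and those with a wide range in Rag1, the last chosen after their values were seen. Related genes were named by smallest p. Alternatives were other normalizations, pseudocounts of 1 and 64, no filter, only the groups compared, a replicate block, array weights, the actin ratio as covariate, no arrays of ratio over 3, the mean over a gene's probe sets, and each array left out in turn. Leaving out both BP arrays of ratio over 3 was added after seeing the data.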

Additional observations from a re-analysis of the deposited data

How the results depend on the processing

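The count of members that passed was 0 in each comparison under median centring, values as deposited, pseudocounts of 1 and 64, no filter, only the groups compared, the replicate block and the mean over all probe sets of a gene. For BP minus Rag1 it was 6 with array weights, 6 with the actin ratio as covariate, 6 without the arrays of actin ratio over 3 and 6 without both such BP arrays, and 0 to 9 with 1 array left out. For Rag1 minus B6 it was 2 with array weights and 0 with any 1 array left out. For BP minus B6 it was 1 with array weights, 5 with the covariate, 2 without the arrays of actin ratio over 3 and 7 without both such BP arrays, and 0 to 6 with 1 array left out. Without the arrays of actin ratio over 3, BP and B6 kept 1 array each, and without both such BP arrays BP kept 1; a lone array was assumed to vary like the groups with more. All counts above 0 with 1 array left out came without BP replicate 2. Their causes were not tested.

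The median over members ran from -0.30 to 0.15 in BP minus Rag1, from -0.02 to 0.33 in Rag1 minus B6 and from 0.01 to 0.31 in BP minus B6. Against the sign given in the report, calls in the other direction were Srebf1 in BP minus Rag1 (-0.94 with the covariate, -0.84 without the arrays of actin ratio over 3 and -0.84 without both such BP arrays), Sc5d in BP minus Rag1 (0.75 with the covariate), Sc5d in BP minus B6 (0.66 with the covariate, 0.78 without both BP arrays) and Nsdhl in BP minus B6 (-0.68 without both BP arrays). A further 39, 33 and 31 of 525 values per comparison changed sign without passing in either fit. The sign never changed for 12, 11 and 14 of 25 members. Rag1 replicate 3 was highest for 20 to 23 members and Rag1 replicate 2 lowest for 19 to 22 under 5 other settings.

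With the replicate block, 0 members passed, and 799, 74 and 142 of all probe sets did in BP minus Rag1, Rag1 minus B6 and BP minus B6, against 1027, 89 and 171 without it. Deviations of same-numbered arrays correlated at -0.19 to 0.23 over all probe sets, not every sample correlated best with its own number, and the numbers were not taken as pairs. Median centring moved the median of all probe sets to -0.12 in BP minus Rag1 and -0.13 in BP minus B6, and values as deposited moved it to 0.12 in Rag1 minus B6. The count of all probe sets called in BP minus Rag1 was 1027 as reported, 183 with only the groups compared, 18 to 5275 with 1 array left out and up to 6250 without the arrays of actin ratio over 3. It was 89 in Rag1 minus B6, with 37 to 347 on leaving out 1 array and up to 1050 with array weights. It was 171 in BP minus B6, with 499 under median centring, 51 with only the groups compared, 55 to 3029 on leaving out 1 array and up to 5657 without both BP arrays of actin ratio over 3.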
